A study of Mus musculus with 4 samples.

Results

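C1q-low tumor monocytes were selected on single-cell RNA counts of LLC lung tumors in mice as cells rich in lysozyme RNA that almost lacked complement C1q transcripts. UMIs, unique molecular identifiers, are the counted RNA molecules. A cell was taken if it had 200 genes or more, mitochondrial transcripts in no more than 10% of its UMIs, at least 10 UMIs of Lyz2, at least 1 UMI over Csf1r, Ccr2 and Fn1, and at most 1 UMI over C1qa, C1qb and C1qc. Spp1 had to stay under 0.3% of the cell's UMIs and 10 neutrophil genes (Csf3r, Cxcr2, G0s2, Hdc, Il1r2, Mmp8, Mmp9, Retnlg, S100a8 and S100a9) under 1%. Flt3, Cd3e and Cd79a had to be at 0, the nonclassical monocyte genes Ace, Treml4, Cd300e and Adgre4 at no more than 1 UMI, and the alveolar macrophage genes Krt79, Fabp1, Plet1, Car4 and Cidec at no more than 2 UMIs. This gave 152 of 3376 tumor cells (4.5%), out of 13344 cells of the series. The members were thus chosen by the measured counts of these genes, whose values are given only as a description. Lyz2 stood at 14717 and 26604 CPM, Fn1 at 1599 and 1026 CPM and Ccr2 at 620 and 375 CPM in tumor Rab37 KO and tumor WT members, where CPM, counts per 1e6 summed UMIs of the members, is the unit of every level below.

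Live CD45-positive cells had been sorted from C57BL/6 mice lacking Rab37 (Rab37 KO) or wild type (WT), and their RNA was counted from the 3′ end on the 10x Genomics platform. Tumor libraries came from mice injected with cells of LLC, a mouse lung carcinoma line, and normal lung libraries from mice given Matrigel without tumor cells, all at day 14. Each pair of genotype and tissue had 1 library, so no difference could be set against a spread between animals and no test was made. How many mice went into a library, the cells in which Rab37 was removed and the deleted stretch of the gene are not given in the sources used here.

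Classical monocytes leave the bone marrow through the chemokine receptor Ccr2 and enter inflamed tissue and tumors, where they lose blood monocyte transcripts such as Ly6c2 and can take on those of macrophages. In tumors they are known as a source of chemokines that draw neutrophils and more monocytes, of matrix and clotting proteins, and of arginase. Rab37 belongs to the Rab GTPases, switches of vesicle transport inside the cell. The study's title places Rab37 upstream of osteopontin (Spp1) secretion, and the monocytes described here are the tumor phagocytes with little C1q and little Spp1.

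Of the 112 members in the tumor Rab37 KO library, taken from 2729 cells, the share was 4.10% (exact 95% Clopper-Pearson interval 3.39 to 4.92). The tumor WT library had 40 members among 647 cells, 6.18% (4.45 to 8.32). The same rule took 87 of 4726 cells in the normal Rab37 KO library, 1.84% (1.48 to 2.27), and 104 of 5242 cells in the normal WT library, 1.98% (1.62 to 2.40). Members were thus a larger share of both tumor libraries than of either normal lung library, while the intervals of the tumor libraries overlapped. All intervals here cover counting error only and not variation between mice. Those of levels and ratios below treat UMIs as independent, so they also leave out the spread among cells.

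The stretch before the RefSeq start of 3 nearby chemokine genes on chromosome 5 is shown because their transcripts were higher in tumor Rab37 KO than in tumor WT members, as described further on (GRCm38.p6, plus strand). Capitals mark matches to the motifs searched on both strands, which were the TATA box TATAAA, the NF-kB consensus, the AP-1 motif TGANTCA, the C/EBP motif TTGCNNAA and the hypoxia response core ACGTG. Cxcl3 (chr5:90785851-90786100) and Cxcl2 (chr5:90903649-90903870, cut at the GENCODE start) encode ligands of the neutrophil receptor Cxcr2, and Pf4 (chr5:90772185-90772434) encodes platelet factor 4.
Cxcl3: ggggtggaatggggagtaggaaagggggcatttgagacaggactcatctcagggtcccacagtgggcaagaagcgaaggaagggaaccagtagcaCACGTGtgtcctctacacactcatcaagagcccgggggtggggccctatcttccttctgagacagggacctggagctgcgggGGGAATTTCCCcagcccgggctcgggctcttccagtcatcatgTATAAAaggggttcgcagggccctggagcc
Cxcl2: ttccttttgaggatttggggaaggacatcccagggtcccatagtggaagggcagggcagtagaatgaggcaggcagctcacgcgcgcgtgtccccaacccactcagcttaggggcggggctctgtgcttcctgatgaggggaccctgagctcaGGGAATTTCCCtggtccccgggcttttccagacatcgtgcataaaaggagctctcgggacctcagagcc
Pf4: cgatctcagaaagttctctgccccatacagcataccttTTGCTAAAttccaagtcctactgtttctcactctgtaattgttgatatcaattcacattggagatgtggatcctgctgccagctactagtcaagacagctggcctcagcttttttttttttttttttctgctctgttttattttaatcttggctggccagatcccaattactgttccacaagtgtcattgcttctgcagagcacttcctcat

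Cxcl3 and Cxcl2 both held the run GGGAATTTCCC, in which the NF-kB consensus matched on either strand with overlap. Counted from the RefSeq start, it began 73 bases before it in Cxcl3 and 97 in Cxcl2. For Cxcl2 that start is 90903899, past the GENCODE start 90903871 where the printed sequence was cut, so the 2 distances depend on the start used. Among the 250 bases before the start of 32851 genes, a window longer than the 222 bases shown for Cxcl2, 7.25% held an NF-kB consensus match. Cxcl3 also had TATAAA 30 bases before its start (12.4% of all promoters) and overlapping ACGTG matches within CACGTG (16.6%). Pf4 had a C/EBP match 212 bases before its start (9.56% of all promoters), and TGANTCA, present in 6.75% of promoters, matched in none of these windows. A match is a run of letters only and says nothing of a factor's binding.

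The label was checked against markers that the rule did not use. All 15 monocyte markers of that kind reached 10 CPM in the members of both tumor libraries. All 15 also did so in the normal cells of the same rule and in tumor C1q macrophages. This count therefore does not separate the members from those cells. Their summed level was 16951 CPM in tumor Rab37 KO members (exact Poisson interval 16700 to 17205), 8039 CPM in tumor WT members (7749 to 8338), and 12191 and 11799 CPM in the normal Rab37 KO and normal WT cells of the same rule. C1q macrophages of the tumor Rab37 KO and tumor WT libraries, described further on, had 8869 and 4542 CPM on the same list, so tumor WT members were below the tumor Rab37 KO macrophages. Thbs1 alone gave 5078 and 1204 CPM of these sums in tumor Rab37 KO and tumor WT. Among the others were Plac8 at 1529 and 929 CPM, Ifitm3 at 2672 and 1763 CPM, Hp, which encodes haptoglobin, at 558 and 273 CPM, and Cd14, the lipopolysaccharide co-receptor, at 1438 and 968 CPM in tumor Rab37 KO and tumor WT members. Ly6c2, the Ly6C surface protein of blood monocytes, had 366 CPM in tumor Rab37 KO and 161 CPM in tumor WT members, against 628 and 724 CPM in normal Rab37 KO and normal WT cells. The log2 ratio of Plac8 between the tumor libraries, 0.72, was −0.38 without the cells that held macrophage transcripts, which left 8 tumor WT members.

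Markers of macrophages went beside those of monocytes, more so in tumor WT. The 15 markers of monocyte-derived or resident macrophages summed to 4440 CPM in tumor Rab37 KO members and 7789 CPM in tumor WT members, so in tumor WT the macrophage list stood close to the monocyte list. Apoe alone gave most of the tumor WT sum, and its mean per cell was 2030 CPM in tumor Rab37 KO and 5021 CPM in tumor WT. Mrc1, of the same list, went the other way, with means of 402 and 38.3 CPM. A UMI of the macrophage genes Trem2, Gpnmb, Mmp12 or Ms4a7 was found in 57 of 112 tumor Rab37 KO members (50.9%) and 32 of 40 tumor WT members (80.0%), against 20 of 87 normal Rab37 KO (23%) and 21 of 104 normal WT cells (20.2%). By these sums and shares the label fitted the tumor Rab37 KO cells better than the tumor WT cells. The latter carried monocyte and macrophage transcripts at like summed levels, those of macrophages mostly from Apoe.

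**Figure D1:**
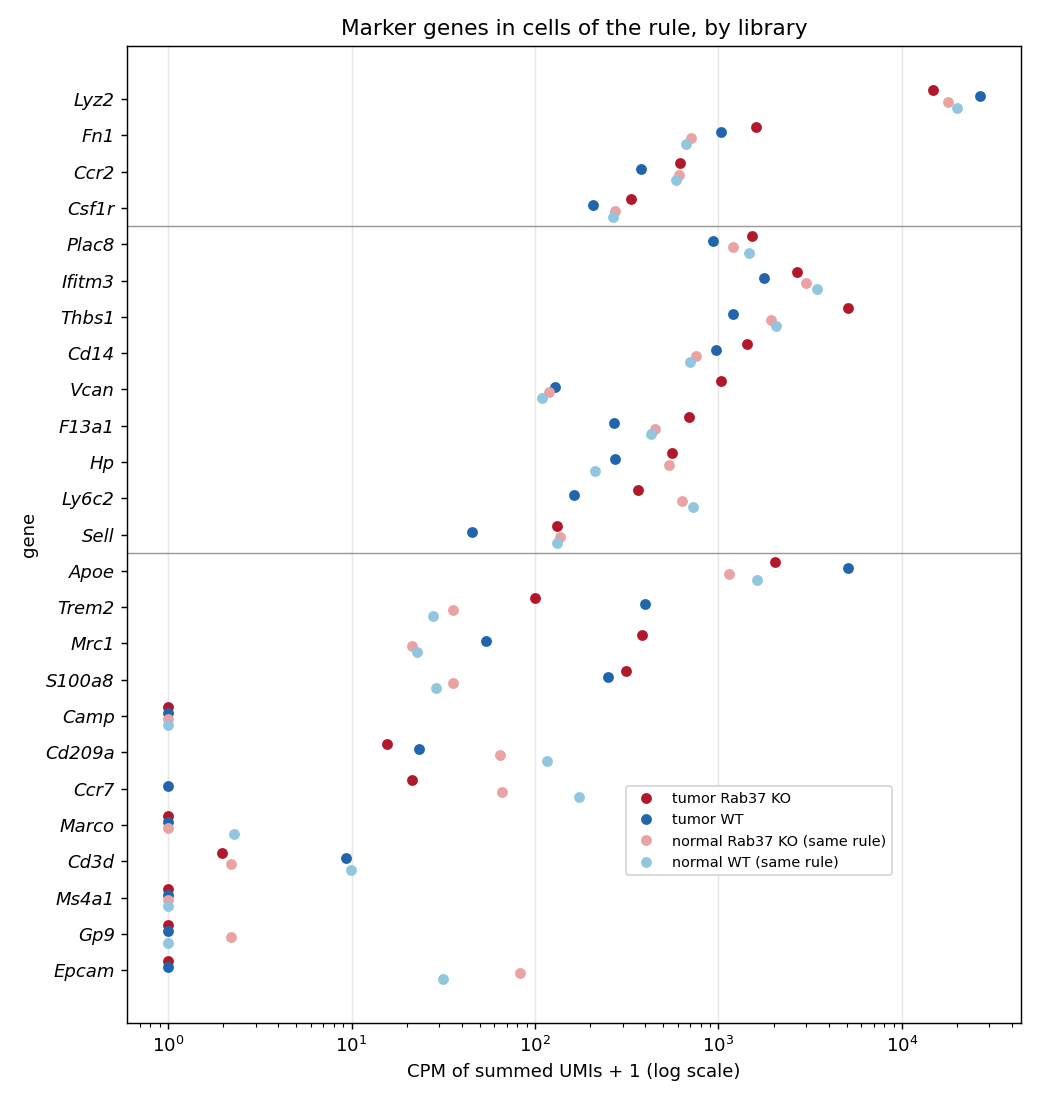
Marker genes in the cells of the rule. The horizontal axis gives CPM plus 1 on a log scale and the vertical axis the genes; symbols stand for tumor Rab37 KO, tumor WT, normal Rab37 KO and normal WT cells. The upper genes belong to the rule, the middle ones are monocyte markers outside it, and the lower ones mark other cell types. Ly6c2 stood at 366 and 161 CPM in tumor Rab37 KO and tumor WT against 628 and 724 CPM in the normal libraries, while Camp, a neutrophil granule gene, was at 0 in all 4.

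Markers of other cells were lower. Neutrophil genes outside the rule summed to 296 CPM in tumor Rab37 KO and 217 CPM in tumor WT members, and Camp was at 0 in both. The 10 neutrophil genes that the rule held under 1% summed to 1341 CPM in tumor Rab37 KO and 481 CPM in tumor WT members. A UMI of these 10 genes was seen in 108 of 112 and 28 of 40 members. The part of neutrophil RNA in the differences between these libraries was not tested. T or NK cell genes summed to 127 and 473 CPM, B or plasma cell genes to 32.2 and 19.5 CPM, dendritic cell genes to 67.3 and 36.2 CPM, red blood cell genes to 35.1 and 2.78 CPM, and carcinoma or stromal genes to 36.1 and 11.1 CPM in tumor Rab37 KO and tumor WT, with mast cell and basophil genes at 0 UMIs. Nonclassical monocyte genes outside the rule gave 647 and 698 CPM and alveolar macrophage genes outside it 1612 and 1288 CPM, most of which came from Chil3, which monocytes also express (1534 and 1093 CPM). Platelet genes summed to 1173 CPM in tumor Rab37 KO and 214 CPM in tumor WT members and are taken up with Pf4.

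Several features of the libraries stand beside every comparison. Rab37 had 0 UMIs in the members of all 4 libraries, where 3 UMIs would have been 2.92, 8.34, 3.6 and 3.82 CPM in tumor Rab37 KO, tumor WT, normal Rab37 KO and normal WT, and the cells of the whole libraries held 8, 25, 13 and 314 Rab37 UMIs in that order, or 0.266, 4.79, 0.374 and 8.60 CPM. A Y-linked gene without Xist was seen in 77 of 112 tumor Rab37 KO members and Xist without a Y-linked gene in 36 of 40 tumor WT members, with 0 cells the other way round, so genotype and sex cannot be told apart in the tumor comparison. The normal libraries held both kinds, with 41 Y-linked and 23 Xist cells in normal Rab37 KO and 40 and 33 in normal WT, so sex also differed between tumor and normal lung. Members had median depths of 8540.5, 7242.5, 7977 and 6930.5 UMIs, median mitochondrial shares of 3.35%, 1.43%, 3.17% and 2.76%, and summed UMIs of 1025832, 359610, 834168 and 784560 in the same order. No barcode was shared between the members of 2 libraries, and Scrublet called none of them a doublet, although it called only 4 of 2729 cells in tumor Rab37 KO and 6 of 647 in tumor WT. Where a threshold of the rule fell, 16 tumor Rab37 KO and 3 tumor WT members held the 1 C1q UMI allowed, and 8 and 4 cells just outside held 2 or 3. Just inside the Spp1 limit stood 8 members at 0.155 to 0.266% and 3 at 0.211 to 0.292%, and just outside it 5 cells at 0.402 to 0.551% and 5 at 0.344 to 0.423%. Just inside the Lyz2 limit stood 6 members with 10 to 14 UMIs and 2 with 11 to 13, and outside it 15 cells with 5 to 9 and 1 with 5. At the neutrophil limit it was 6 members at 0.543 to 0.969% and 0 members, and outside it 6 cells at 1.11 to 1.97% and 1 at 1.34%, each time in tumor Rab37 KO and tumor WT.

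Rab37 KO and WT tumor monocytes were then compared, the genotype contrast of the design. Tumor Rab37 KO monocytes carried more RNA of neutrophil-attracting chemokines, of Il1b and Ptgs2, and of matrix and clotting genes such as Vcan and Thbs1. Tumor WT monocytes carried more RNA of MHC class I genes and, over all members, of lysosomal, lipid-handling and interferon-induced genes. Macrophage transcripts were found in 80.0% of tumor WT and 50.9% of tumor Rab37 KO members. Without those cells the median log2 ratio of the lysosomal list was 0.34. Then 8 of 23 measured genes were higher and 2 lower, against 25.4% and 30.0% of all genes. Every value given without those cells rests on 8 tumor WT members. Within the cells with macrophage transcripts the median of the interferon list was 0.02. Of 7744 genes with at least 10 UMIs over both libraries, 1750 (22.6%) were at least 1.5-fold higher and 1883 (24.3%) at least 1.5-fold lower in tumor Rab37 KO, with a median log2 ratio of −0.05. The exact interval of the ratio lay wholly above 1 for 718 genes and wholly below 1 for 862. Such intervals leave out the spread among cells. With the highest cell of each gene left out in each library, 2187 of 7071 measured genes were higher and 1187 lower. Scaling by median of ratios or by TMM would raise every log2 ratio of this comparison by 0.18 or 0.17.

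Chemokines that attract neutrophils came first. Cxcl3, the highest ratio among the genes named by size, stood at 1083 CPM in tumor Rab37 KO and 80.6 CPM in tumor WT members, a ratio of 13.4 (9.30 to 20.1), with UMIs in 50 of 112 and 6 of 40 cells, and at 38.4 and 81.6 CPM in normal Rab37 KO and normal WT cells. Cxcl2 had 9570 and 2511 CPM, a ratio of 3.81 (3.56 to 4.08), against 1584 and 3215 CPM in normal Rab37 KO and normal WT cells. In mm10, Cxcl3 (ENSMUSG00000029379) spans 90786103 to 90789600 and Cxcl2 (ENSMUSG00000058427) 90903871 to 90905938 on the plus strand of chromosome 5. For both genes tumor Rab37 KO members were above the other 3 libraries, and tumor WT members were not above normal WT cells. Cxcl1, another ligand of Cxcr2, had 376 and 86.2 CPM, of which 74.2% in tumor WT came from 1 cell.

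With these ligands counted in, 13 of 18 measured genes of the inflammatory list of 22 were higher in tumor Rab37 KO and 2 were lower, against 22.6% and 24.3% of all measured genes, and their median log2 ratio was 1.18. Il1b, encoding the cytokine interleukin-1 beta, had 1814 and 459 CPM in tumor Rab37 KO and tumor WT, a ratio of 3.95 (3.37 to 4.66). Ptgs2, the inducible cyclooxygenase of prostaglandin synthesis, had 724 and 122 CPM, a ratio of 5.92 (4.37 to 8.22). Ccl2, the ligand of Ccr2, had 730 and 278 CPM (ratio 2.63, 2.13 to 3.27), and its log2 ratio was 0.42 in place of 1.39 without the cells that held Pf4 or Ppbp. Tnf had 125 and 38.9 CPM, and without the cells that held macrophage transcripts its log2 ratio was −0.11 in place of 1.68. The genes that were lower were Ccl5, whose UMIs came almost wholly from 1 cell in each library, and Cxcl16, a membrane-bound chemokine, at 28.3 and 156 CPM (5.51-fold lower, 3.46 to 8.95), whose log2 ratio was −0.51 in place of −2.46 without the cells that held macrophage transcripts.

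Among 6 measured genes of the second chemokine list of 9, 4 were higher and 1 lower, against 22.6% and 24.3% of all measured genes. The list's median was 1.40. Ccl9, a ligand of the receptor Ccr1, had 1251 CPM in tumor Rab37 KO and 406 CPM in tumor WT, a ratio of 3.08 (2.59 to 3.68), and was found in 105 of 112 and 29 of 40 members. Its levels in normal Rab37 KO and normal WT cells, 405 and 452 CPM, were near that of tumor WT. Pf4 had 1009 and 192 CPM, a ratio of 5.26 (4.12 to 6.81), and 7.19 and 5.10 CPM in the normal cells. It was found in 38 of 112 and 5 of 40 members, and the highest cell held 24.3% of its UMIs in tumor Rab37 KO and 69.6% in tumor WT. A UMI of Pf4 or of Ppbp, both carried by platelets, was present in 40 of 112 tumor Rab37 KO (35.7%) and 6 of 40 tumor WT members (15%), against 3 of 87 and 3 of 104 normal cells, and in 67 of 79 tumor Rab37 KO C1q macrophages (84.8%). Ppbp itself had 157 CPM in tumor Rab37 KO and 2.78 CPM in tumor WT. The other platelet markers were near the floor: Gp9, Gp1bb and Gp5 had 0 UMIs in both tumor libraries and Itga2b had 0.975 and 0 CPM.

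Chemokine transcripts were also counted outside the monocytes. C1q macrophages, tumor cells that met every other limit of the rule but held at least 10 C1q UMIs (79 in tumor Rab37 KO and 33 in tumor WT), had Cxcl2 at 9052 and 2412 CPM, close to the monocytes of the same library. In T cells of the tumor Rab37 KO library, cells with a Cd3d, Cd3e or Cd3g UMI and at most 1 Lyz2 UMI, with a median of 4805 UMIs and after thinning of all cells to 1500 UMIs, Cxcl2 was seen in 40.0%, Il1b in 20.0% and Cxcl3 in 12% of 100 cells. The thinned shares of tumor Rab37 KO members were 78.6%, 64.3% and 26.8% for these genes, and without thinning 91.1%, 79.5% and 44.6%, against 59.8%, 31.4% and 19.6% of 102 T cells. In tumor WT, with T cells at a median of 3066.5 UMIs, members had 45.0%, 42.5% and 5.00% and 51 T cells 13.7%, 9.80% and 1.96%, and without thinning members had 55.0%, 55.0% and 15% and 52 T cells 17.3%, 9.62% and 3.85%. Members were above T cells in each library, and the T cells of the tumor Rab37 KO library were themselves above those of tumor WT. For thinned Cxcl3 in tumor WT this order rested on 2 of 40 members (0.61 to 16.9%) and 1 of 51 T cells (0.05 to 10.4%), with overlapping intervals. The thinned T cell intervals of the tumor libraries also overlapped for Il1b and Cxcl3. Of the T cells, 2 in tumor Rab37 KO and 1 in tumor WT were too shallow for thinning.

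**Figure D2:**
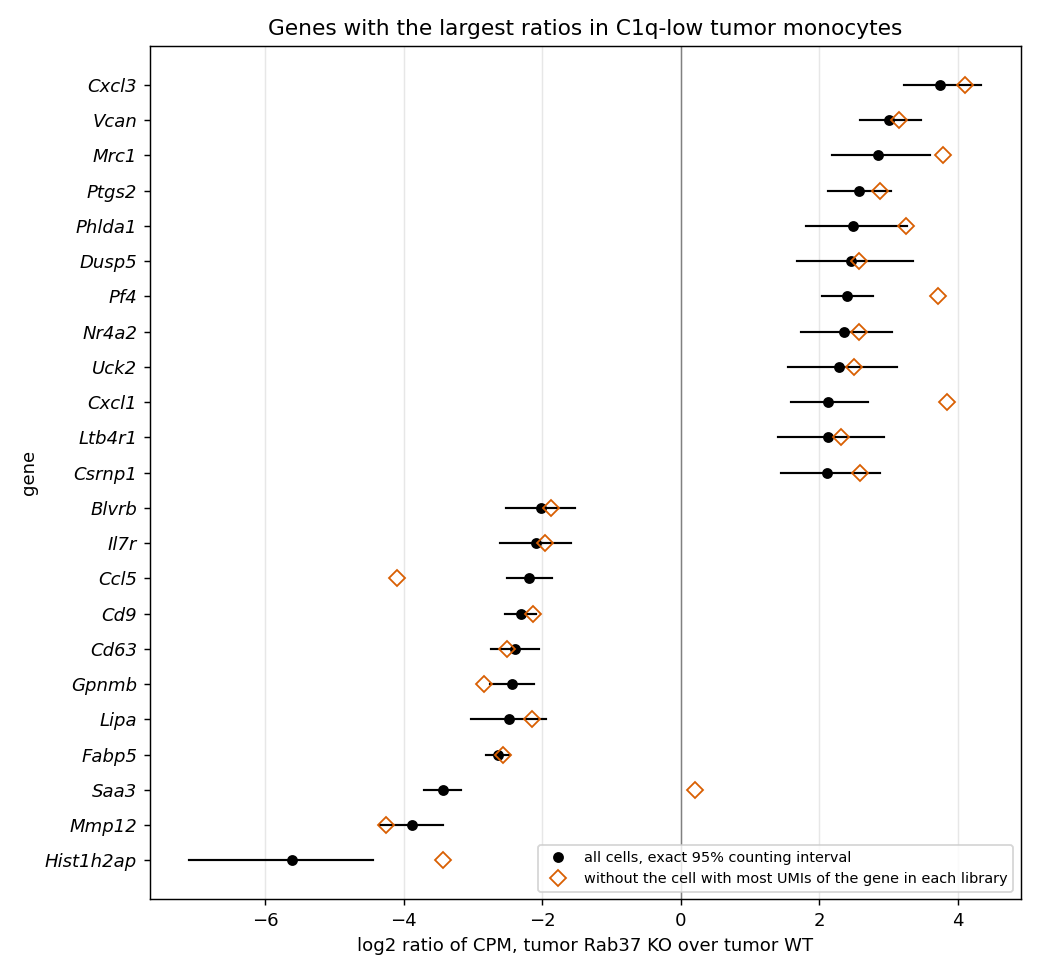
Genes named for tumor Rab37 KO over tumor WT monocytes. Points give the log2 ratio of CPM on the horizontal axis with exact 95% intervals for counting error, genes run down the vertical axis, and open diamonds show the ratio after the highest cell of each gene was left out in each library. Cxcl3 stood at a ratio of 13.4 and Vcan at 8.03, while Mmp12 was 14.7-fold and Fabp5 6.22-fold lower in tumor Rab37 KO.

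Vcan, which encodes the matrix proteoglycan versican, was found in nearly every tumor Rab37 KO member. It was counted in 106 of 112 tumor Rab37 KO and 17 of 40 tumor WT members, at 1027 and 128 CPM, against 119 and 108 CPM in normal Rab37 KO and normal WT cells. The ratio of tumor Rab37 KO to tumor WT was 8.03 (5.98 to 11.0), and the median member had 795 CPM in tumor Rab37 KO and 0 in tumor WT. After thinning, 67.9% of tumor Rab37 KO members and 22.5% of tumor WT members held Vcan, against 1.00% and 0 of the T cells, where 0 of 51 allows a share of up to 5.88%, taken as 3 cells (exact upper bound 6.98%). Without thinning the shares were 94.6% and 42.5% of members and 1.96% and 0 of the T cells. The log2 ratio was 3.01 over all members, 3.35 in those without macrophage transcripts and 2.67 in those with them. Vcan (ENSMUSG00000021614) lies on chromosome 13, 89655312 to 89742509 on the minus strand of mm10.

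The matrix, clotting and proteolysis list followed, with 13 of 19 measured genes of 21 higher, 5 lower and a median of 1.06. The shares over all measured genes were 22.6% higher and 24.3% lower. Thbs1, thrombospondin-1, had 5078 CPM in tumor Rab37 KO and 1204 CPM in tumor WT, a ratio of 4.22 (3.82 to 4.66), and 1941 and 2066 CPM in normal Rab37 KO and normal WT cells. F13a1, the A chain of clotting factor XIII, had 686 and 267 CPM (ratio 2.57, 2.07 to 3.22), and the metalloproteinase Mmp19 188 and 36.2 CPM (5.20, 2.97 to 9.95). Tgfbi, an extracellular matrix protein induced by TGF-beta, had 1375 and 809 CPM (1.70, 1.5 to 1.94), with a log2 ratio of 0.31 in place of 0.77 without the cells that held lymphocyte transcripts. Serpinb2, an inhibitor of plasminogen activators, had 121 and 5.56 CPM, with 43.5% of its tumor Rab37 KO UMIs from 1 cell. Among the lower genes was Mmp12, macrophage elastase, at 48.7 and 717 CPM (14.7-fold lower, 10.8 to 20.3), and more than 50% of its UMIs came from 1 cell in either library.

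Of the suppressor and alternative activation list of 17, 7 of 13 measured genes were higher and 1 lower, with a median of 0.69. For all measured genes the shares higher and lower were 22.6% and 24.3%. Mrc1, the mannose receptor CD206, had 380 and 52.8 CPM, a ratio of 7.20 (4.55 to 12.1), and was seen in 47 of 112 tumor Rab37 KO and 9 of 40 tumor WT members. In tumor WT 1 cell held 52.6% of the Mrc1 UMIs, and without the cells that held Pf4 or Ppbp the log2 ratio was 1.45 in place of 2.85. Trem1, an amplifying receptor of myeloid cells, had 140 and 58.4 CPM (2.40, 1.51 to 4.00), and a log2 ratio of 0.28 in place of 1.27 after thinning to 1500 UMIs per cell. Arg1, encoding arginase-1, had 1136 and 606 CPM, a ratio of 1.87 (1.62 to 2.17), from a like share of cells, 49 of 112 and 18 of 40. Without the cells that held Pf4 or Ppbp the Arg1 log2 ratio was −0.65 in place of 0.91, so its direction rested on those cells, and after thinning it was 0.15. Cd274, which encodes PD-L1, had 55.6 and 72.3 CPM, and the interval of its ratio, 0.475 to 1.27, included 1.

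Lysosomal and lipid-handling genes were lower in tumor Rab37 KO, with 20 of 28 measured genes lower, 1 higher and a median of −1.21. Of all measured genes, 24.3% were lower and 22.6% higher. Fabp5, a fatty acid binding protein, had 381 CPM in tumor Rab37 KO and 2372 CPM in tumor WT (6.22-fold lower, 5.51 to 7.03). Gpnmb, a membrane glycoprotein of lipid-laden macrophages, had 124 and 667 CPM (5.39-fold lower, 4.33 to 6.74), and Lipa, lysosomal acid lipase, 43.9 and 245 CPM (5.58-fold lower, 3.85 to 8.18). The tetraspanins Cd63 and Cd9 had 106 and 257 CPM in tumor Rab37 KO against 556 and 1276 CPM in tumor WT. The protease cathepsin D, Ctsd, had 774 and 2553 CPM, cathepsin B, Ctsb, 930 and 2194 CPM, and the lipid carrier Apoe 2033 and 5100 CPM. The exception was Abca1, the cholesterol exporter, at 152 and 64.0 CPM (2.38-fold higher, 1.53 to 3.86).

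The direction of these genes differed between members with and without the macrophage transcripts named above. Gpnmb and Trem2 belong both to the list and to the genes that split the cells, so the split is not independent of the list. With both left out of the list, its median was −1.13 over all members, −1.22 in the members with macrophage transcripts and 0.34 in those without. In the 57 tumor Rab37 KO and 32 tumor WT members with a UMI of Trem2, Gpnmb, Mmp12 or Ms4a7, the list's median log2 ratio was −1.25. In the 55 and 8 members without one, it was 0.34, and the log2 ratios were 1.56 for Cd63, 1.98 for Cd9, 1.67 for Ctsd, 0.40 for Ctsb, 0.34 for Lipa and 0.02 for Apoe, while Fabp5 stayed at −0.68. The direction of the list therefore depended on which cells were taken, and 8 cells stand on the tumor WT side. Lymphocyte transcripts were those of Cd3d, Cd3g, Trac, Nkg7, Gzma, Klrb1c and Il7r. A UMI of any of them was held by 21 of 112 tumor Rab37 KO members (18.8%) and 19 of 40 tumor WT members (47.5%). Without those cells the list's median was −0.55 and the log2 ratio of Ctsd −0.11 in place of −1.72. The part of these transcripts in the result was not tested.

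MHC class I genes were lower in tumor Rab37 KO, 9 of 14 measured and none higher, with a median of −0.63. Over all measured genes 24.3% were lower and 22.6% higher. H2-D1, a heavy chain, had 1376 and 2492 CPM in tumor Rab37 KO and tumor WT (1.81-fold lower, 1.66 to 1.97), with a log2 ratio of −0.35 in place of −0.86 without the cells that held macrophage transcripts, and the immunoproteasome subunit Psmb8 had 226 and 456 CPM (2.02-fold lower, 1.64 to 2.47). B2m, the light chain, had 1292 and 1632 CPM. The list's median kept its sign in the cells with macrophage transcripts (−0.56) and in those without (−1.06). Of 21 measured interferon response genes of 25, 12 were lower and 3 higher, with a median of −0.93. Bst2, tetherin, had 91.6 and 300 CPM (3.28-fold lower, 2.46 to 4.37), and Isg15 17.5 and 100 CPM, with 52.8% of its tumor WT UMIs from 1 cell. In the cells with macrophage transcripts the median of the interferon list was 0.02.

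Of the hypoxia and glycolysis genes, 13 of 24 measured were higher in tumor Rab37 KO and 0 lower, with a median of 0.60. Across all measured genes the shares were 22.6% higher and 24.3% lower. In the median member the list took 0.845% of UMIs in tumor Rab37 KO and 1.09% in tumor WT, the opposite order. Upper quartiles were 1.88% and 1.46%. After thinning, 11 of 23 were higher and 2 lower, against 28.3% and 21.5% of all genes, with a median of 0.43. Without the cells that held Pf4 or Ppbp, 7 of 24 were higher, against 23.8% of all genes, and the median was 0.25. The glucose transporter Slc2a1 had 253 and 94.5 CPM (2.68, 1.87 to 3.95), the stress gene Ndrg1 164 and 50.1 CPM (3.27, 2.01 to 5.66) and the lactate exporter Slc16a3 244 and 100 CPM (2.43, 1.71 to 3.56). Of the glycolytic enzymes, Gapdh had 2697 and 2308 CPM, Pgk1 737 and 437 CPM and Tpi1 656 CPM in both.

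For the other lists only counts, medians and a few genes are given. Innate receptors had 11 of 24 higher and 2 lower (median 0.55), among them Tlr2 at 253 and 94.5 CPM and the inflammasome sensor Nlrp3 at 282 and 120 CPM, the Nlrp3 log2 ratio being 0.52 in place of 1.24 without the cells that held lymphocyte transcripts. Adhesion and migration genes had 10 of 20 higher and 4 lower (0.59), and transcription factors of monocytes 8 of 24 higher and 1 lower (0.34). Immediate early genes had 8 of 18 higher and 0 lower (0.46), with the nuclear receptor Nr4a2 at 313 and 61.2 CPM (5.11, 3.32 to 8.28), while Fos and Jun had 1941 and 1280 CPM in tumor Rab37 KO against 2086 and 1226 CPM in tumor WT. Heat shock genes had 0 of 12 higher and 2 lower (0.06), metal and redox genes 4 of 21 higher and 8 lower (0.15), Rab and exocytosis genes 5 of 23 higher and 1 lower (0.15), and colony-stimulating factors and their receptors 0 of 6 higher and 3 lower (−0.24). The medians of the heat shock, metal and redox, Rab, and colony-stimulating factor lists each changed sign under some of the alternatives. The Rab and exocytosis genes thus lay close to the share of all genes called higher, 22.6%, but below the share called lower, 24.3%. MHC class II genes had 3 of 11 higher and 1 lower (0.30) over all members. Their median was −1.61 (1 of 8 higher, 6 lower) without the cells that held macrophage transcripts, −1.26 (1 of 10 higher, 7 lower) without those that held lymphocyte transcripts and 0.86 (9 of 11 higher, 0 lower) within the cells with macrophage transcripts, so it depended on the cells taken. Of the 6 osteopontin receptor genes, Cd44 had 751 and 348 CPM (2.16, 1.79 to 2.63), Itgb1 222 and 409 CPM and Itgb5 26.3 and 91.8 CPM. Cell cycle genes had 1 of 15 higher and 9 lower (−2.51), and that median was 0.33 without the cells that held lymphocyte transcripts. With only the highest cell of each gene left out it was −0.014, with 2 of 6 measured genes higher and 2 lower.

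Spp1, held under a limit by the rule, stood at 282 CPM in tumor Rab37 KO and 428 CPM in tumor WT members, and at 8.39 and 42.1 CPM in normal Rab37 KO and normal WT cells. The remaining genes named by size were Phlda1, Dusp5, Uck2, Ltb4r1 and Csrnp1, at ratios of 5.63, 5.51, 4.86, 4.35 and 4.34. On the lower side they were Il7r (53.6 and 228 CPM) and the heme enzyme Blvrb (58.5 and 236 CPM). Il7r is also among the lymphocyte transcripts by which members were split above. Saa3, Hist1h2ap and Ctsg were also ranked as lower, but between 82% and all of their tumor WT UMIs came from 1 cell.

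**Figure D3:**
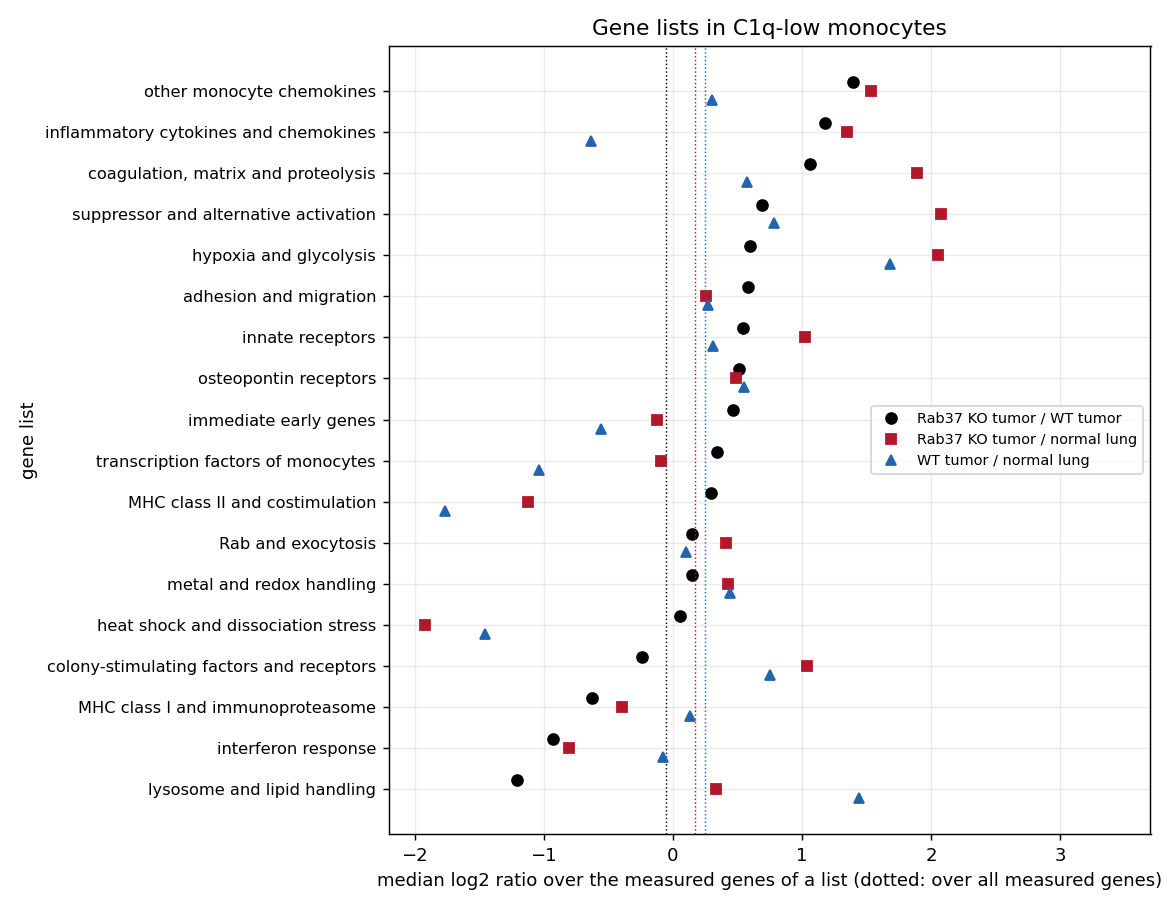
Gene lists in the monocytes. The horizontal axis gives the median log2 ratio of CPM over the measured genes of a list and the vertical axis the lists; circles stand for tumor Rab37 KO over tumor WT, squares for Rab37 KO tumor over normal lung and triangles for WT tumor over normal lung, and dotted lines mark the medians of all measured genes. The inflammatory list stood at 1.18, 1.35 and −0.63 in that order, and the hypoxia list at 0.60, 2.05 and 1.68.

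Tumor members were then set against the cells that the same rule took from normal lung of the same genotype. In both genotypes the tumor cells carried Arg1, with 0 UMIs in the normal cells, and more RNA of glycolysis and hypoxia genes, while heat shock genes and Cd83 were lower. Of the inflammatory genes, 13 of 20 measured were higher in Rab37 KO tumor than in normal lung and 10 of 19 were lower in WT tumor. In the Rab37 KO libraries 2290 of 8385 measured genes (27.3%) were 1.5-fold or more above normal lung and 1382 (16.5%) below it by as much, and the median log2 ratio was 0.18. In the WT libraries it was 2434 of 7271 genes (33.5%) higher and 1391 (19.1%) lower, with a median of 0.25. Scaling by TMM would lower these log2 ratios by 0.15 and 0.37 and by median of ratios by 0.13 and 0.34. The matrix software version also differed, 3.0.1 for the normal and 3.1.0 for the tumor libraries. Tissue, injection, library, software version and the mix of sexes cannot be told apart here.

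Arg1 (ENSMUSG00000019987, chromosome 10, 24915221 to 24927484, minus strand, mm10) had 1136 CPM in Rab37 KO tumor and 606 CPM in WT tumor members, and 0 UMIs in 87 normal Rab37 KO and 104 normal WT cells. Against a floor of 3 UMIs in each normal library, it was at least 316-fold higher in Rab37 KO tumor and at least 159-fold higher in WT tumor. Dab2, an endocytic adaptor, had 365 CPM in Rab37 KO tumor against 2.40 in normal Rab37 KO, and 250 CPM in WT tumor against 11.5 in normal WT. Ms4a6d had 418 against 55.1 CPM and 398 against 67.6 CPM, Mif, a cytokine that slows macrophage migration, 620 against 120 CPM and 754 against 120 CPM, and the lectin Lgals1 630 against 145 CPM and 1040 against 229 CPM. Clec4n, Grina, Ctsl, Pla2g7 and Eno1 were the other genes of that rank with log2 ratios from 2.00 to 3.24, and Ifitm1 had 79.4% of its WT tumor UMIs in 1 cell.

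Hypoxia and glycolysis genes were higher almost throughout, 24 of 24 measured in Rab37 KO and 22 of 25 in WT, with medians of 2.05 and 1.68. Of all measured genes, 27.3% in Rab37 KO and 33.5% in WT were higher. Tpi1, a glycolytic enzyme, had 656 CPM in both tumors against 99.5 and 87.9 CPM in normal Rab37 KO and normal WT cells. Bnip3, a mitochondrial protein induced by low oxygen, had 179 and 106 CPM in Rab37 KO and WT tumor against 8.39 and 14.0 CPM in the normal cells, but its log2 ratio in WT was 0.36 in place of 2.91 after thinning. Vegfa, the vascular growth factor, had 428 and 375 CPM against 76.7 and 178 CPM, and its WT log2 ratio of 1.07 was 0.34 in the members with a Ccr2 UMI. Per cell, the list took a median of 0.845% of UMIs in Rab37 KO tumor and 1.09% in WT tumor, against 0.308% and 0.286% in normal lung.

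Heat shock genes were lower, 12 of 13 in Rab37 KO and 11 of 13 in WT tumor, with medians of −1.92 and −1.45. Among all measured genes, 16.5% in Rab37 KO and 19.1% in WT were lower. Hspa1b, an inducible Hsp70, had 392 CPM in Rab37 KO tumor and 345 CPM in WT tumor against 4084 and 3356 CPM in normal Rab37 KO and normal WT cells. Cd83, a marker of activated antigen-presenting cells, had 29.2 and 22.2 CPM against 457 and 700 CPM, and Cst3, cystatin C, 1433 and 1557 CPM against 7629 and 9726 CPM. Without the cells that held dendritic cell transcripts, found mostly in normal lung, the log2 ratio of Cst3 was −0.27 in Rab37 KO, in place of −2.41, and −0.54 in WT, in place of −2.64.

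For the counts that follow, the shares over all measured genes were 27.3% higher and 16.5% lower in Rab37 KO tumor. In WT tumor they were 33.5% and 19.1%. Lysosomal and lipid-handling genes were higher in 10 of 27 measured and lower in 4 in Rab37 KO tumor (median 0.33) and higher in 23 of 28 and lower in 0 in WT tumor (1.44). The inflammatory list had 13 of 20 higher and 3 lower in Rab37 KO tumor (1.35) and 3 of 19 higher and 10 lower in WT tumor (−0.63). Without the cells that held Pf4 or Ppbp it was 9 of 18 higher and 4 lower in Rab37 KO (0.59), against 27.7% and 16.3% of all genes. After thinning it was 4 of 16 higher and 6 lower in WT (−0.19), against 29.5% and 24.4% of all genes. The matrix and clotting list had 16 of 19 higher and 1 lower (1.89) and 7 of 15 higher and 4 lower (0.58), and the suppressor list 9 of 13 higher and 0 lower (2.08) and 6 of 12 higher and 1 lower (0.78). Interferon genes had 1 of 24 higher and 16 lower (−0.81) and 10 of 21 higher and 5 lower (−0.08), and innate receptors 18 of 23 higher and 2 lower (1.03) and 10 of 22 higher and 3 lower (0.31), a WT median that lay below 0 after scaling by TMM or median of ratios and without the cells that held dendritic cell transcripts. These genotype patterns share their tumor libraries with the Rab37 KO against WT comparison and are not independent of it.

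MHC class II genes, which present antigen to CD4 T cells, were lower in tumor over all cells of the rule, 10 of 12 in Rab37 KO and 12 of 12 in WT, with medians of −1.12 and −1.76. The shares of all measured genes that were lower were 16.5% in Rab37 KO and 19.1% in WT. H2-Ab1 had 1364 CPM in Rab37 KO tumor and 1424 CPM in WT tumor, against 2780 and 3677 CPM in normal Rab37 KO and normal WT cells. The invariant chain Cd74 had 3255 and 3140 CPM against 6839 and 9314 CPM. Transcripts of dendritic cells (Ccr7, Ccl22, Il12b, Xcr1, Clec9a, Zbtb46 or Fscn1) were found in 3 of 112 Rab37 KO tumor and 0 of 40 WT tumor members, and in 19 of 87 normal Rab37 KO (21.8%) and 29 of 104 normal WT cells (27.9%). Without those cells the log2 ratio of H2-Ab1 was 1.34 in Rab37 KO, in place of −1.03, and 0.47 in WT, in place of −1.37. The median of the list in Rab37 KO was then 1.09, with 8 of 11 measured genes higher and 1 lower, against 28.2% and 15% of all genes. In WT it was −0.13, with 1 of 10 higher and 4 lower, against 33.3% and 18.8% of all genes. The direction in Rab37 KO thus turned when 19 normal and 3 tumor cells were left out.

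**Figure D4:**
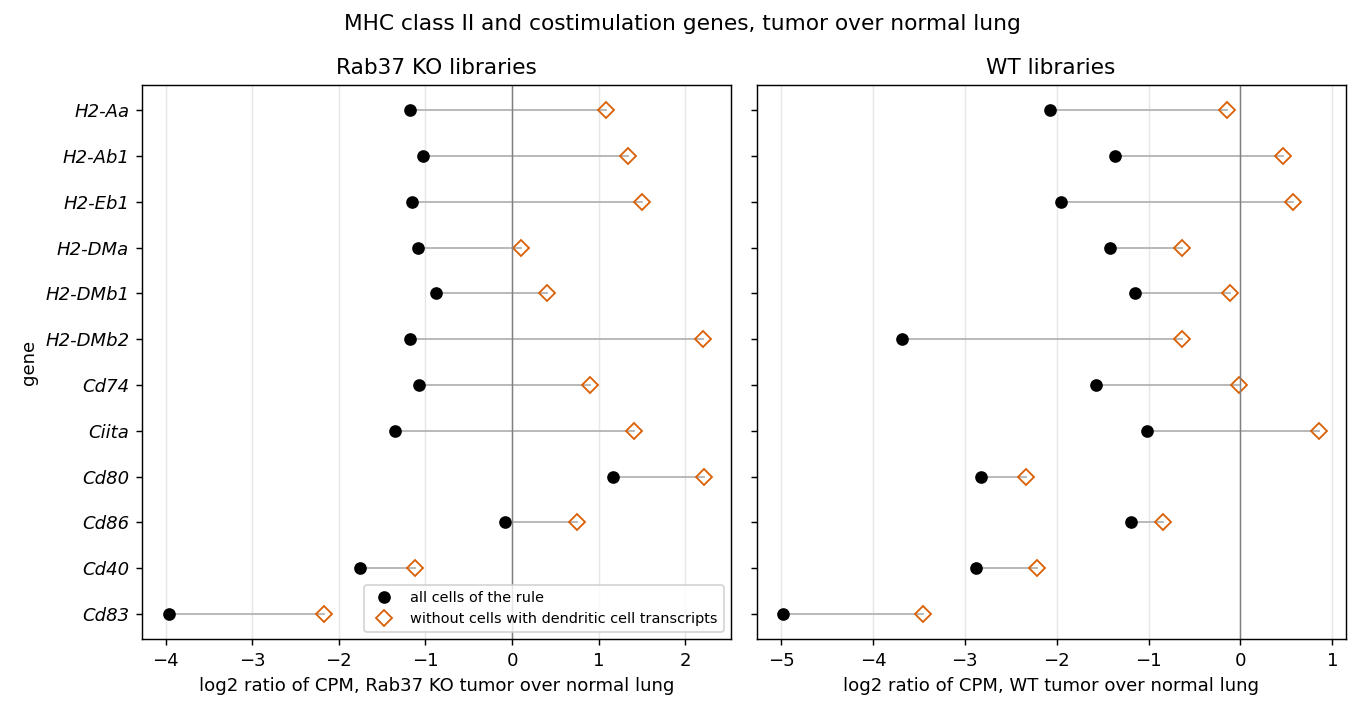
MHC class II and costimulation genes, tumor over normal lung. The horizontal axes give the log2 ratio of CPM in Rab37 KO libraries (left) and WT libraries (right) and the vertical axis the genes; filled circles are all cells of the rule and open diamonds the cells without dendritic cell transcripts. H2-Ab1 moved to 1.34 in Rab37 KO and 0.47 in WT, while Cd83 stayed below 0 in both.

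Individual members varied widely within a library. The inflammatory list took a median of 1.05% of a member's UMIs in tumor Rab37 KO (quartiles 0.357 and 2.67%) and 0.246% in tumor WT (0.115 and 0.715%), against 0.417% and 0.509% in normal Rab37 KO and normal WT cells. Thbs1 had a median of 3468 CPM per cell in tumor Rab37 KO and 784 CPM in tumor WT, and Cxcl2 5116 and 288 CPM. Arg1 was at 0 in the median cell of both tumor libraries and reached 14920 and 7126 CPM in the highest cell. After thinning, 29.5% of tumor Rab37 KO and 35% of tumor WT members held Arg1, against 6.00% and 0 of the T cells and 0 of 86 and 103 normal cells, which allow shares of up to 3.49% and 2.91%, taken as 3 cells (exact upper bounds 4.20% and 3.52%). Without thinning it was 43.8% and 45.0% of members and 10.8% and 0 of the T cells. Mrc1 was held by 21.4% and 2.50% of members after thinning and by 2.00% and 0 of the T cells, and without thinning by 42.0% and 22.5% of members and 7.84% and 0 of the T cells.

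**Figure D5:**
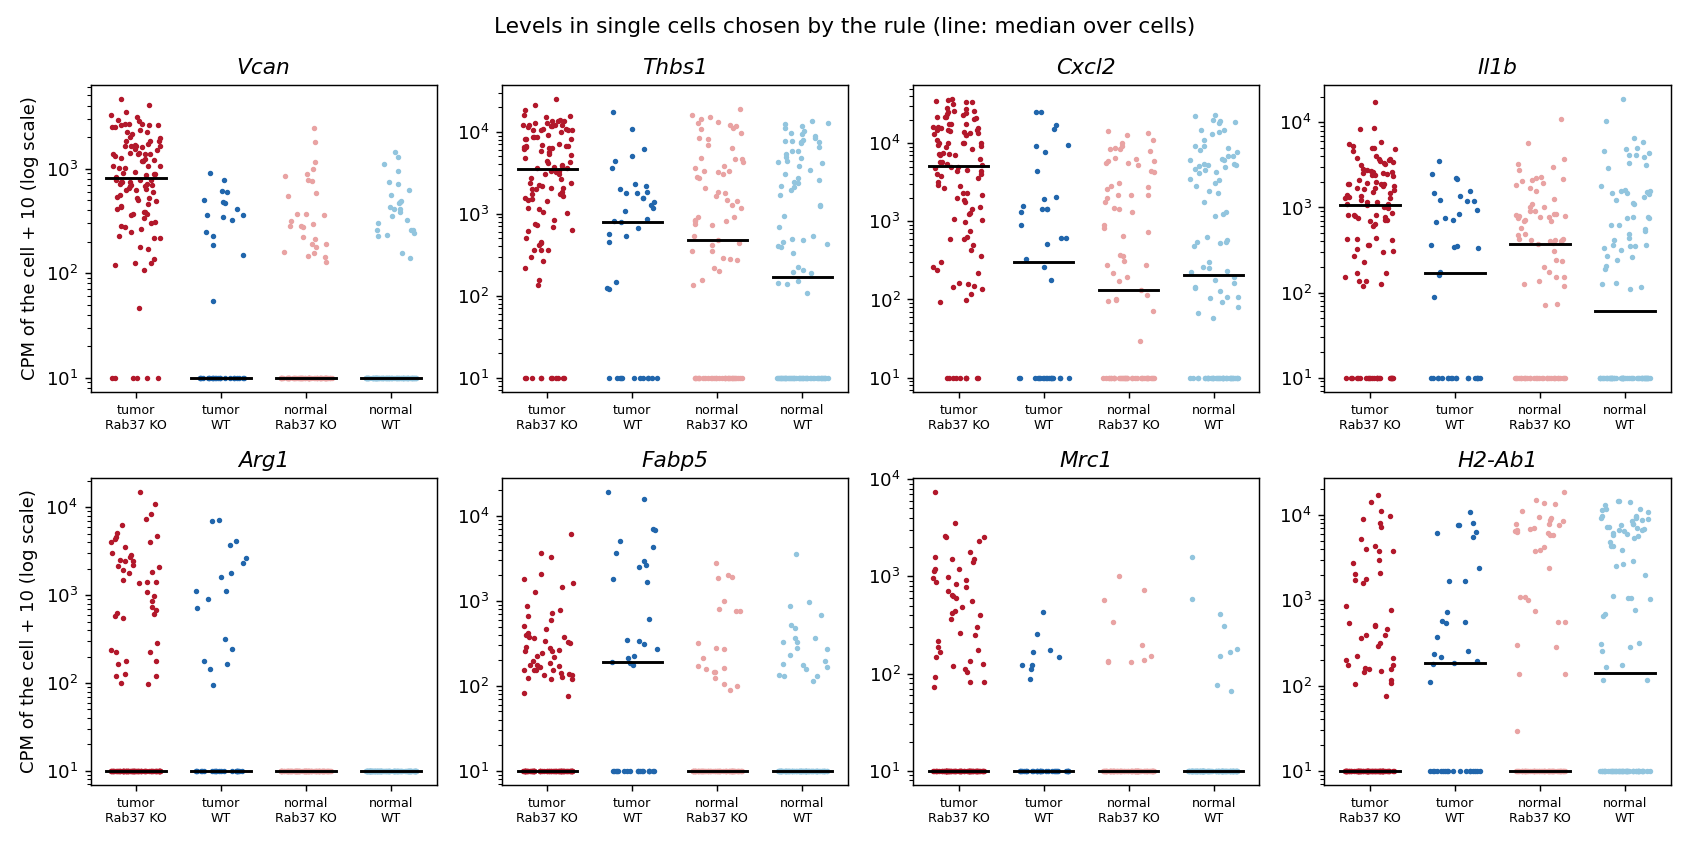
Single cells of the rule. The vertical axes give CPM plus 10 per cell on a log scale for 8 genes, and the columns stand for tumor Rab37 KO, tumor WT, normal Rab37 KO and normal WT cells. Vcan had a median of 795 CPM in tumor Rab37 KO cells and 0 in tumor WT cells, and Arg1 was at 0 in all normal cells.

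Within tumor Rab37 KO, the share of a cell's UMIs in hypoxia genes and that in inflammatory genes had a Spearman correlation of 0.63 over 112 cells, and within tumor WT of 0.29 over 40 cells. The cells of a library share their mice, depth range and denominator, so these values only describe the libraries. The correlation of the hypoxia and inflammatory shares with depth was 0.09 and 0.12 in tumor Rab37 KO and −0.16 and 0.05 in tumor WT.

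Against the C1q macrophages of their own library, the monocytes had more RNA of blood monocyte genes. In tumor Rab37 KO, Ly6c2 was at 366 CPM in monocytes and 27.0 CPM in C1q macrophages (13.5-fold higher, 9.75 to 19.3), Plac8 at 1529 and 179 CPM, Hp at 558 and 120 CPM, and Vcan at 1027 and 263 CPM. Ms4a7 had 14.6 and 267 CPM (18.3-fold lower, 11.0 to 33.0), the folate receptor Folr2 10.7 and 136 CPM, Ctsd 774 and 2746 CPM and Apoe 2033 and 6756 CPM. Cxcl2, Cxcl3, Ccl9 and Il1b stood at ratios of 1.06, 0.983, 0.981 and 1.15. In tumor WT the separation was smaller, with Ly6c2 at 161 and 58.9 CPM (2.74, 1.65 to 4.70), Plac8 at 929 and 236 CPM, Vcan at 128 and 126 CPM, Ms4a7 at 128 and 361 CPM and Ctsd at 2553 and 2297 CPM. Arg1 was lower in monocytes than in C1q macrophages in both libraries, at 1136 and 2297 CPM in tumor Rab37 KO and 606 and 1135 CPM in tumor WT. C1q itself separated these cells, so genes that go with it differ by choice of the cells and the values are a description.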

How the data were processed

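The authors deposited counts as raw UMIs per gene and cell barcode for 4 libraries, 31053 features each, with at least 500 UMIs per barcode, so barcodes had been selected before deposit. The matrix software version was 3.0.1 for the normal and 3.1.0 for the tumor libraries, per the file headers, and the genome build mm10, per the submitters' processing notes. No source used here names the aligner. Libraries held 31165927 (tumor Rab37 KO), 5275118 (tumor WT), 35690716 (normal Rab37 KO) and 37231538 UMIs (normal WT).

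From the deposited counts, UMIs were summed over the cells of the rule in a library and divided by the sum of all their UMIs (CPM). Levels carry exact Poisson intervals, ratios exact conditional binomial intervals and shares Clopper-Pearson intervals, all at 95%. A gene was measured if both libraries together held 10 UMIs or more, and counted as higher or lower at 1.5-fold, with a floor of 3 UMIs where a library had 0. With 1 library per group no p-value was computed. Members, the 20 gene lists (360 genes, among them a list of sex-linked genes) and 14 marker lists were chosen with earlier results of these data known; 2 listed genes were not analysed here. Genes ranked for naming were the 12 with the largest ratio each way, and up to 3 per list with at least 50 CPM. The 12 had intervals that did not overlap and, where the gene was higher, 200 CPM and 20 UMIs or more. That ranking left out genes of the rule, sex-linked and predicted genes, and those of mitochondria, ribosomes, hemoglobins, immunoglobulins and T cell receptors. Other list members and markers in the text were chosen after their values were seen. For tumor against normal lung and for the lists, not every ranked gene is given in the text. For shares of cells with a UMI, every cell was thinned to 1500 randomly drawn UMIs. Promoter sequences came from RefSeq, where all 3 genes looked up were matched; the GENCODE vM21 annotation held 30934 of the feature identifiers (99.6%). Reads from paralogs or overlapping genes could not be told apart. Alternatives changed the rule's limits, the filter, the scaling, the depth and the cells kept. The ratio calculation was tested on simulated data. Python 3.11.15, numpy 2.4.6, scipy 1.17.1, pandas 2.3.3, scanpy 1.11.5 and matplotlib 3.10.9 were used.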

Additional observations from a re-analysis of the deposited data

Results flagged for a closer look

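For 13 of 236 list genes measured in both genotypes with at least 50 CPM (5.51%) the tumor cells of the rule stood at least 1.5-fold above normal lung in 1 genotype and at least 1.5-fold below it in the other. Over all 2643 genes so measured it was 68 (2.57%). Scaled by median of ratios, 9 of the 13 were still 1.5-fold apart from normal lung both ways, without Bst2, F13a1, Rab20 and Rab8b, and scaled by TMM 8, without Tcf4 as well. The difference between the genotypes was not tested, since each group has 1 library. Each value is a log2 ratio of tumor over normal lung, given for the Rab37 KO libraries and then for the WT libraries. Among genes higher in Rab37 KO tumor, Il1b had 1.48 and −1.36, Ptgs2 1.94 and −0.92, Ccl2 1.26 and −1.39, and the nuclear receptor Nr4a2 1.71 and −1.49. Thbs1 had 1.39 and −0.78, F13a1 0.60 and −0.68, and the metallothionein Mt1 0.94 and −1.08. The vesicle traffic genes Rab20 and Rab8b had 0.61 and −0.98, and 0.67 and −0.65, and the transcription factor Tcf4 had 0.73 and −0.93. In the opposite order, the lysosomal lipase Lipa had −0.64 and 2.26, the lipoprotein lipase Lpl −4.60 and 1.16, and tetherin Bst2 −0.83 and 0.90.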

How the results depend on the processing

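No paired analysis was possible because each group has 1 library, and the replicate number only names it. Over all alternatives, 102 counts or shares stayed within 1.5 times or their interval and 22 did not. Of gene ratios, 1940 stayed in the 95% interval of the ratio reported, 552 left it, and 27 that were at least 1.5-fold turned sign. Of list medians, 958 stayed within 1.5-fold, 38 did not, and 11 that were at least 1.5-fold turned sign. With smaller values counted in, 41 of 2519 gene ratios and 75 of 1007 list medians changed sign, and these medians belong to 19 of 57 pairs of list and comparison. Without cells holding Pf4 or Ppbp the member share of tumor Rab37 KO was 2.64%. Higher and lower genes of Rab37 KO against WT numbered 915 and 694 after thinning, 1060 and 873 with 30 UMIs over both libraries, 4818 lower without a filter and 1187 lower with the highest cell of each gene left out. Against normal lung, WT had 853 and 703 after thinning, 1229 and 751 with 30 UMIs, 1561 and 2160 by median of ratios, 1460 and 2218 by TMM, and 5489 higher without a filter, while Rab37 KO had 1094 and 653 after thinning, 1479 and 635 with 30 UMIs, and 3817 and 3374 without a filter. The cause was not tested, except that thinning and the filter change how many genes are measured. The log2 values that turned sign from at least 1.5-fold follow. For Rab37 KO against WT, the cell cycle median was 0.22 with Lyz2 of at least 20 UMIs, 0.49 with Lyz2 of at least 0.2%, 0.33 without lymphocyte transcripts and 0.24 after thinning. Ccl5 was 3.12 with 0 C1q UMIs, 3.25 with neutrophil genes under 0.2%, 0.61 without Pf4 or Ppbp cells and 3.49 in cells with macrophage transcripts. Saa3 was 0.10 with Spp1 under 0.1%, 0.0538 without lymphocyte transcripts and 0.21 with the highest cell left out. Arg1 was −0.65 without Pf4 or Ppbp cells, Stx11 −0.49 after thinning, and the interferon median 0.0235 in cells with macrophage transcripts. Without cells with macrophage transcripts, values were −0.11 for Tnf, 1.56 for Cd63, 1.98 for Cd9, 0.34 for Lipa, 1.67 for Ctsd, 0.40 for Ctsb, 0.0160 for Apoe, −0.38 for Plac8, 1.44 for Saa3, −0.0217 for Cd80 and 0.34 for the lysosomal median. For WT tumor against normal lung, the cell cycle median was −0.49 under both Lyz2 settings, −0.00525 with 30 UMIs and −0.33 with the highest cell left out, and Hilpda −0.10 with Ccr2 required. Without dendritic cell transcripts, H2-Ab1 was 0.47 and H2-Eb1 0.58 in WT, and Rab37 KO had 1.34 for H2-Ab1, 1.09 for H2-Aa, 1.5 for H2-Eb1, 0.90 for Cd74, 0.30 for Nr4a3 and 1.09 for the class II median. The 40 tumor WT members, with 359610 UMIs, limit what can be seen: single cells set several low genes there. The alternatives by macrophage, lymphocyte and dendritic cell transcripts were chosen after seeing the data.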
